A study of Homo sapiens with 24 samples.

Results

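Ribosome biogenesis genes encode the nuclear machinery that makes ribosomes. They were followed here through 48 h of HepaRG cell culture after replating. The members were 48 gene symbols listed for this purpose and grouped by role. The roles were nucleolar proteins, RNA polymerase I subunits with the cofactor TCOF1, and snoRNP and RNA modification proteins. The others were processing or assembly factors of the small and of the large subunit. A gene was measured only where at least 1 array probe set was annotated to its symbol alone. This held for 37 of the 48 genes, with 55 probe sets, and the 37 were among 9966 genes tested in all. All 37 passed the filter on dim signals. NOP56, DKC1, BOP1 and PPAN lay only on probe sets shared with another symbol and were not used, and LYAR, NOP58, UTP4, NOB1, EBNA1BP2, GNL3 and DDX18 had no probe set in the annotation used here.

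Ribosomes are built in the nucleolus, where RNA polymerase I transcribes the precursor of most ribosomal RNA. Small nucleolar ribonucleoproteins (snoRNPs) guide its chemical modification, and many assembly factors cut and fold it onto ribosomal proteins before both subunits leave the nucleus. The genes for these factors are often transcribed together and are known to be active when cells grow or enter the cell cycle, as hepatocytes do in regenerating liver.

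HepaRG is an established human liver progenitor line that can form hepatocyte-like and biliary-like cells. All samples came from cultures kept for 2 weeks in William's E medium with fetal bovine serum, penicillin, streptomycin, insulin and hydrocortisone hemisuccinate, and then for 2 further weeks with DMSO added. The hepatocyte-like cells were detached by mild trypsin treatment and plated sparsely, a step the labels call reprogramming, and were harvested at 0 h, 1 h, 4 h, 8 h, 12 h, 16 h, 24 h and, last, 48 h, with 3 samples at each time and no cultures left undisturbed among the samples used here. Each sample was read on 1 Affymetrix 1-colour array, whose values are intensities per probe set. All samples came from this 1 line, and the labels do not say whether the 3 samples of a time were separate cultures, so the p-values reflect how far such samples differ and no more, and that spread may be only technical.

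The 24 arrays had been scaled to a common mean, and their median signals ranged between 99.8 and 141.9. The ratio of the 3' to the 5' ACTB control probe set, a measure of RNA integrity, was 2.03, 6.91 and 2.56 at 0 h and 1.02 to 2.12 at all later times, so 0 h replicate 2 stood apart. Replicate 3 at 0 h also lay above every later array, and replicate 1 above all but 4 h replicate 3. The same ratio for GAPDH was 1.11, 1.92 and 1.10 at 0 h. In the 7 comparisons with 0 h, a part of RNA integrity cannot be told apart from that of time. The part of 0 h replicate 2 in the results was not tested beyond the fits without that array, whose counts are given below. The summed signal of 10 measured hepatocyte markers was 354665 to 361560.1 at 8 h and 134377 to 151365 at 48 h, below its 460013 to 504629 at 0 h. The sum of 4 biliary markers (KRT7, KRT19, SOX9 and SPP1) was 20875 to 23735 at 8 h and 16076 to 20368 at 48 h, above its 4628 to 5119 at 0 h. Most of it was KRT19, with mean signals of 16145 ± 2199 at 48 h and 3357 ± 221 at 0 h (SD, n = 3 each), while SOX9 was at 379 ± 43.3 and 517 ± 111 at these times. At 48 h only KRT19 and KRT7 of the 4 were called higher. The sum of 6 fibroblast markers was 2612 to 3124 at 8 h and 3759.8 to 4820.1 at 48 h, above 1716 to 2119.7 at 0 h. ACTA2 was most of this sum, with mean signals of 2611 ± 358 at 48 h and 1157 ± 208 at 0 h (SD, n = 3 each). At 8 h only DCN and LUM of the 6 were called higher, 4 changed above 0, and the lowest log2 change was -0.97. The sum of 3 leukocyte markers was 453 to 723 at 8 h and 245 to 325 at 48 h, with 461 to 664 at 0 h, and that of 2 endothelial markers was 162 to 224 and 71.5 to 144, with 302 to 414 at 0 h. The hepatocyte, biliary and fibroblast sums at 8 h and 48 h did not overlap with those at 0 h, and their part in the results was not tested. In such bulk samples a change in the number of cells of a type cannot be told apart from a change of RNA per cell.

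Of the 37 ribosome biogenesis genes, 20 were called (as defined below) higher at 4 h than at 1 h, against 6.48% of all genes. The median change of all 37 against 0 h was largest at 8 h as deposited, or at 16 h with another scaling given below. It was smaller at 48 h with either. A gene was called higher or lower at a Benjamini-Hochberg adjusted p under 0.05 over all 9966 genes in limma together with at least a 2-fold difference. At 1 h against 0 h none of the 37 genes was called higher and none lower, where 2.22% of all genes were called higher and 0.602% lower, and at an unadjusted p under 0.05 there were 4 higher and 2 lower. The share of all genes at that unadjusted limit was not taken, here or below, so counts at it have no background beside them. At 4 h, 19 of 37 were called higher, against 7.60% of all genes, and at 8 h 26 of 37, against 8.41%. The counts at 12, 16, 24 and 48 h were 24, 21, 20 and 13, where 8.72%, 9.19%, 10.4% and 9.82% of all genes were called higher. No member was called lower than at 0 h at any of the 7 times, and none passed an unadjusted p under 0.05 in that direction after 1 h, while the share of all genes called lower was 7.10%, 10.1%, 10.6%, 11.9%, 11.2% and 11.7% in the 6 comparisons after 1 h. Without 0 h replicate 2 the counts called higher were 17 at 4 h and 25 at 8 h, then 23, 20, 16 and 11 at the 4 later times. There, 5 calls ended at 24 h (TCOF1, NOC4L, DDX10, PNO1 and BRIX1) and 1 was gained, and at 48 h those of NHP2, NOP2 and BRIX1 ended and 1 was gained. BRIX1 also lost its call at 4, 12 and 16 h. By adjusted p alone, with no fold limit, 33 members were higher at 8 h, against 16.0% of all genes, and 28 at 48 h, against 19.6%.

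The median log2 change of the 37 genes against 0 h was -0.10 at 1 h and reached 1.01 and 1.27 by 4 and 8 h. It stood at 1.18, 1.21, 1.01 and 0.88 in the samples of 12, 16, 24 and 48 h. Over all 9966 genes the median lay between -0.16 and -0.09 at these times. The median of all genes shifted with the scaling: with each array centred on its own median it was 0.02 at 8 h and 0.12 at 16 h, while that of the members was 1.44 and 1.48 at these 2 times, against 1.14 in the 48 h samples. The time of the largest median thus moved to 16 h, and this scaling raised the number of members called higher at 48 h to 22. It also moved the median of all genes at 48 h from -0.12 to 0.14. The share of all genes called higher with this scaling is not given here, so the count of 22 has no background beside it. On each of the 18 arrays between 4 h and 48 h the members' mean log2 signal, 9.54 to 10.08, lay above that of the 6 arrays at 0 h and 1 h, 8.70 to 8.87. The 7 comparisons share the 0 h arrays, so they are not independent of each other.

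**Figure D1:**
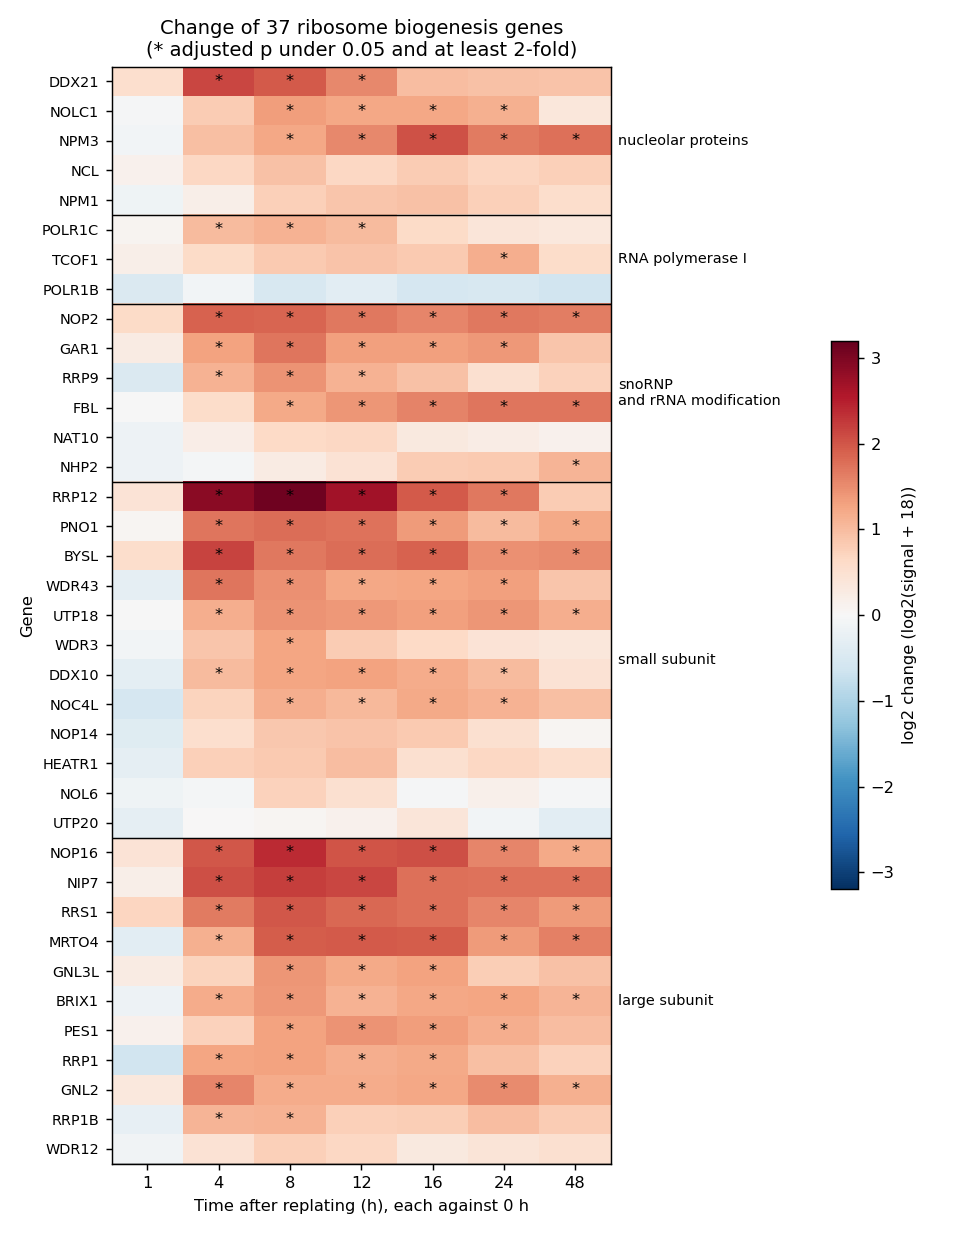
Log2 change of each of the 37 measured genes (rows, grouped by role) at each later time against 0 h (columns), on the log2(signal + 18) scale, with an asterisk where a gene passed the test and the 2-fold limit. The 1 h column holds no asterisk and the 8 h column holds 26, the most of the 7.

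The steps between neighbouring times place the change. At 4 h against 1 h, 20 of 37 genes were called higher, against 6.48% of all genes, none was called lower (4.44% of all genes), and all 37 changes were above 0, with a median of 1.06 against -0.09 over all genes. WDR43, a small subunit processing factor, stood 2.02 ± 0.16 (SE) higher at 4 h than at 1 h on the log2 scale, and NIP7, a large subunit factor, 1.86 ± 0.25. At 8 h against 4 h none of the 37 was called in either direction, against 1.28% higher and 1.94% lower over all genes, and at an unadjusted p under 0.05 there were 12 higher and 1 lower. By adjusted p alone, with no fold limit, 7 genes were higher at 8 h than at 4 h, against 5.53% of all genes, namely NPM1, NOLC1, FBL, PES1, NOP16, MRTO4 and GNL3L, with log2 differences of 0.38 to 0.78. In this step the other tested probe sets of NOLC1 changed by -0.40 and -0.12, and those of GNL3L by -0.70 and 0.01. Those of NPM1 changed by 0.52 and 0.65, and those of NOP16 by 0.17, 1.18 and 0.12. The mean signal was highest at 4 h for 5 genes, at 8 h for 18, at 12 h for 6, at 16 h for 4 and at 24 h for 2, and the other two had their highest mean at 0 h (POLR1B) and 48 h (NHP2).

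By role, 10 of 11 measured large subunit factors and 8 of 12 small subunit factors were called higher at 1 time or more. This also held for 5 of 6 snoRNP and modification proteins and 3 of 5 nucleolar proteins. Of the 3 RNA polymerase I genes it held for 2, the subunit POLR1C and the cofactor TCOF1. Over all roles, 28 of 37 genes were called higher at some time, against 17.7% of all genes. The 9 genes never called higher were NCL, NPM1, POLR1B, NAT10, HEATR1, UTP20, NOL6, NOP14 and WDR12. Of these, 6 still differed from 0 h over the 7 times jointly in limma's moderated F-test, which 34 of the 37 genes passed against 58.9% of all genes. POLR1B, UTP20 and NOL6 did not pass it. At 8 h the 3 arrays of a gene all lay above its 3 arrays at 0 h for 35 of the 37, against 19.1% of all genes, and POLR1B and UTP20 were the exceptions.

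**Figure D2:**
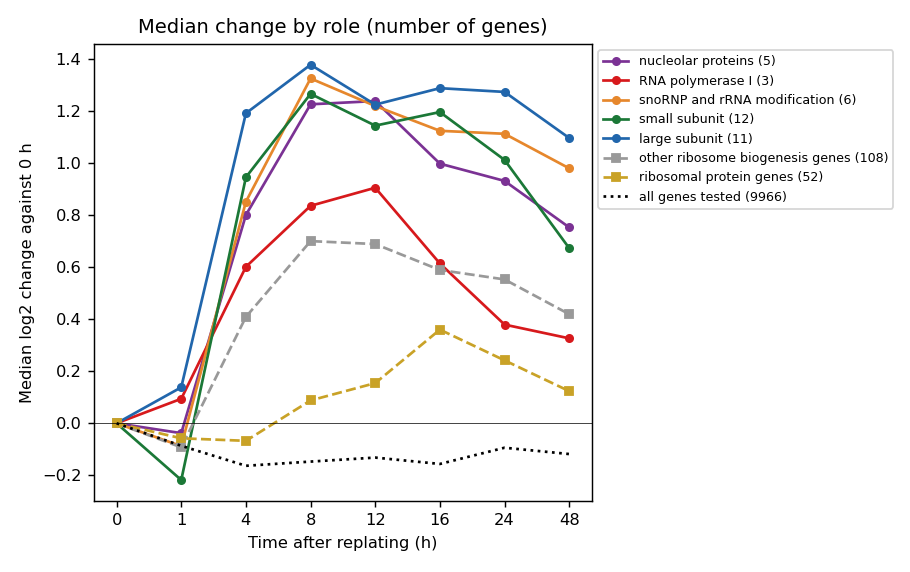
Median log2 change against 0 h (y axis) at each time after replating (x axis) for the 5 roles, for the 52 ribosomal protein genes and other biogenesis genes (dashed) and for all 9966 genes tested (dotted), with the number of genes in brackets. The median of the large subunit factors reached 1.38 at 8 h, while that of the ribosomal protein genes was 0.09. The ribosomal protein genes had brighter signals than the measured members, and the part of brightness in this contrast was not tested.

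Promoter sequences are shown for 4 genes described below that rose, and for POLR1B, which did not, because they share a short motif. The sequences come from RefSeq (GRCh38.p14), whose table held a promoter for 40 of the 48 listed and 32 of the 37 measured genes. Each is the 250 bases before the transcription start, read in the direction of the gene, with the motif CCGGAAG or its reverse complement CTTCCGG in capitals. They lie at chr5:176388599-176388848 (minus strand) for NOP16, chr10:68955920-68956169 (plus strand) for DDX21, chr16:69339522-69339771 (plus strand) for NIP7, chr19:39846380-39846629 (minus strand) for FBL and chr2:112541786-112542035 (plus strand) for POLR1B.
NOP16: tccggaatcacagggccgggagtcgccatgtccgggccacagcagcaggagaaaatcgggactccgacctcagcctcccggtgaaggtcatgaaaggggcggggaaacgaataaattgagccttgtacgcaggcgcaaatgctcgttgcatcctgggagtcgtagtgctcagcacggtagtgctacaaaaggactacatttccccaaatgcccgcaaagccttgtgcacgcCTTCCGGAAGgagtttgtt
DDX21: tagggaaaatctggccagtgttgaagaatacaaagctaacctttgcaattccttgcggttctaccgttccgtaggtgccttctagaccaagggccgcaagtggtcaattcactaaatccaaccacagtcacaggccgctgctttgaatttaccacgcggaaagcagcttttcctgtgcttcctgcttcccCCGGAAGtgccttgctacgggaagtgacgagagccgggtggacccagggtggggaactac
NIP7: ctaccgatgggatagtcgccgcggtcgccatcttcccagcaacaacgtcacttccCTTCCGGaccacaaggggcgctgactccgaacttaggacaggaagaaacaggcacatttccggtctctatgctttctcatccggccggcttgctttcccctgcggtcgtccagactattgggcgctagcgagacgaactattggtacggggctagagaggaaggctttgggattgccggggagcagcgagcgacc
FBL: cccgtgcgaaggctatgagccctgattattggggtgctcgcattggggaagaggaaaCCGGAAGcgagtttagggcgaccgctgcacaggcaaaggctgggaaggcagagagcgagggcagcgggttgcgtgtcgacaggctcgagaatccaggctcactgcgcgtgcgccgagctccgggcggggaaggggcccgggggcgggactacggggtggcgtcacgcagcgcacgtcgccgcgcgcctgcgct
POLR1B: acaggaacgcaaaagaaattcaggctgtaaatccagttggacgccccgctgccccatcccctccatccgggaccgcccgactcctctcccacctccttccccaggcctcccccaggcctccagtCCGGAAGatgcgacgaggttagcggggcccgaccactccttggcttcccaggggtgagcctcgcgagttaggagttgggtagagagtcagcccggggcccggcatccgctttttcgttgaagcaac

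CCGGAAG, on either strand, begins 19 and 16 bases before the start in NOP16, where the 2 matches overlap on opposite strands, and 60 bases before it in DDX21. It begins 193 bases before the start in FBL, 195 in NIP7 and 126 in POLR1B. It stood in 12 of the 40 listed genes' windows (30.0%), against 11.8% of 15843 protein-coding genes with windows of the same length. Among the measured genes it stood in 10 of 23 that were called higher at some time (43.5%) and in 1 of 9 that were never called (11.1%), which is POLR1B. The other motifs searched stood more often in genes never called, of which there are only 9. The NRF1 motif stood in 5 of 23 (21.7%) of the genes called higher and 3 of 9 (33.3%) of the others, CACGTG in 1 (4.35%) and 2 (22.2%), and TATAAA in 0 and 1 (11.1%). Over all listed genes, the NRF1 motif stood in 11 of 40 windows (27.5%) against 7.65% of all, CACGTG in 5 (12.5%) against 7.84%, and TATAAA in 1 (2.5%) against 9.23%. All motifs were searched on both strands. Overlapping matches were all counted. A match is a run of letters and not a shown binding site, these shares were not tested, and nothing measured here reads the promoters.

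Among the nucleolar proteins, DDX21, an RNA helicase that binds ribosomal RNA and snoRNAs, rose by 4 h and was lower again at 48 h than at 8 h. Its signals were 1422, 1429 and 1330.0 at 0 h, 1947, 2284 and 1878 at 1 h, 6922, 5736 and 5943 at 4 h, and 5789, 5073 and 5534 at 8 h. They were 4272, 4351 and 3659 at 12 h, 3170.1, 2465 and 2809.7 at 16 h, 2347, 3039 and 2678 at 24 h, and 2663, 2587 and 2696 at 48 h. Every array from 1 h on lay above the 3 arrays at 0 h. The log2 change against 0 h was 0.54 ± 0.13 at 1 h (adjusted p = 0.0061, under the 2-fold limit) and 2.13 ± 0.13 (SE) at 4 h (adjusted p = 5.8e-15). NOLC1, a nucleolar chaperone of snoRNPs, had signals of 987, 1349.7 and 1077 at 0 h, 999, 1202 and 1104 at 1 h, 2238, 1883 and 1838 at 4 h, and 3121, 2454 and 3153 at 8 h. They were 2451, 2842 and 2784 at 12 h, 2737, 2388 and 3017 at 16 h, 2397, 2246 and 2877 at 24 h, and 1630.3, 1493 and 1261 at 48 h. All arrays from 4 h to 24 h lay above 0 h, while those at 48 h overlapped with 0 h. The log2 change was 1.34 ± 0.15 at 8 h (adjusted p = 5.4e-09). Its 2 other probe sets changed by 1.39 and 1.23 at 8 h, but already by 1.79 and 1.35 at 4 h, and by 0.57 and 0.90 at 16 h.

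NPM3, a nucleoplasmin family member that binds NPM1, rose and was still called higher at 48 h. It gave signals of 220.1, 199 and 236 at 0 h, 281, 209 and 139 at 1 h, 641, 405 and 327 at 4 h, and 542, 597 and 469 at 8 h. Later they were 571, 696 and 742 at 12 h, 865, 912 and 1087 at 16 h, 813, 592 and 796 at 24 h, and 843, 695 and 827 at 48 h. All arrays from 4 h on lay above the 3 at 0 h, with a log2 change of 2.04 ± 0.22 at 16 h (adjusted p = 3.6e-09). NPM1 (nucleophosmin) and NCL (nucleolin), abundant nucleolar proteins with roles in chromatin and ribosomal RNA handling, were higher by adjusted p but stayed under the 2-fold limit. NPM1 had signals of 22381, 18845 and 20249 at 8 h, against 12422, 11925 and 11882 at 0 h, and its largest log2 change was 0.93 ± 0.16 at 16 h (adjusted p = 1.5e-05). Its other two probe sets changed by 1.38 and 1.12 at 8 h, where the first can cross-hybridise with similar transcripts. NCL had 5505, 7555 and 6527 at 8 h, against 3929, 2991 and 3249 at 0 h, a log2 change of 0.94 ± 0.14 (adjusted p = 1.6e-06).

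**Figure D3:**
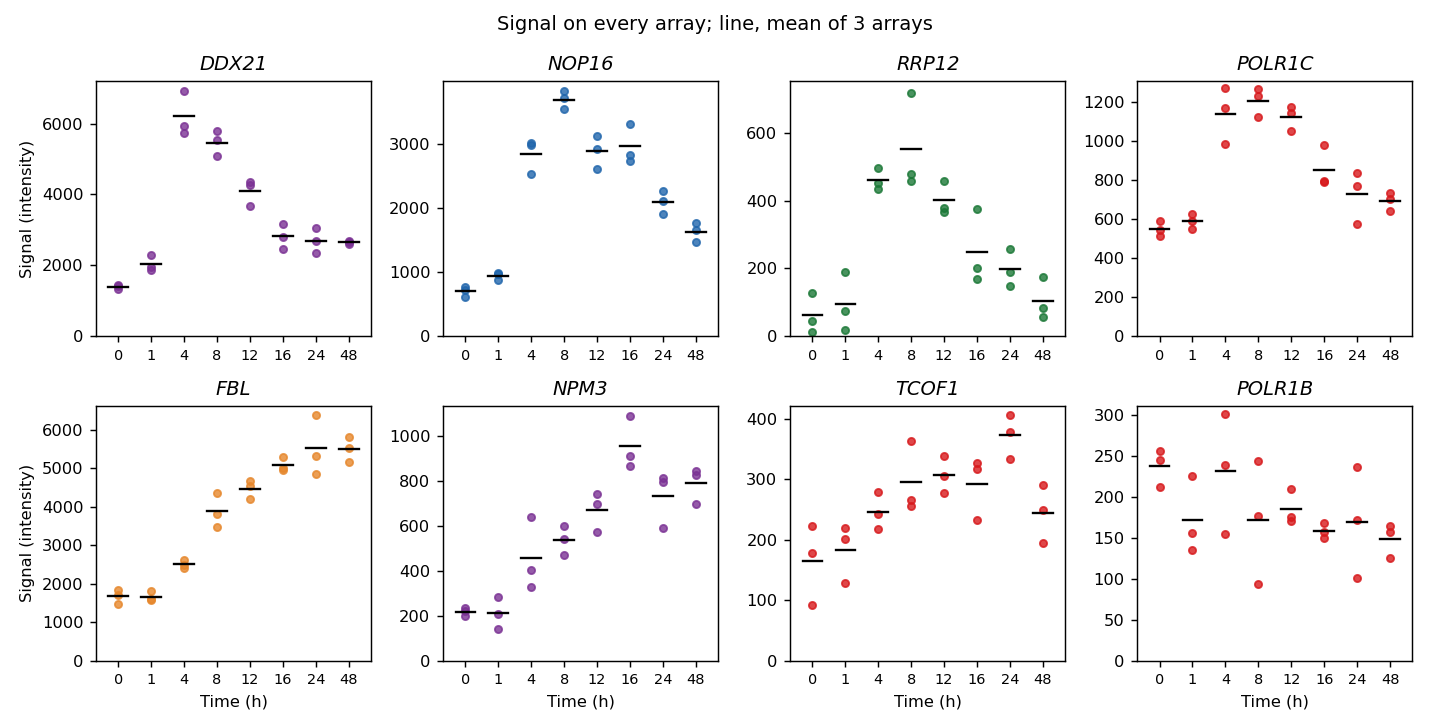
Signal (y axis, intensity from 0, a separate scale for each gene) on each of the 24 arrays by time in hours (x axis) for 8 genes, with the mean of the 3 arrays of a time as a line. DDX21, NOP16, RRP12 and POLR1C are highest at 4 h or 8 h, FBL and NPM3 are still high at 48 h, and POLR1B lies below its 0 h mean at every later time.

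The 3 RNA polymerase I genes did not move alike. POLR1C, a subunit that this enzyme shares with RNA polymerase III, had signals of 589, 545 and 512 at 0 h, 589.8, 547 and 624 at 1 h, 1168, 1268 and 981 at 4 h, and 1228, 1266 and 1119.9 at 8 h. The later arrays gave 1050.0, 1141 and 1172 at 12 h, 792, 787 and 978 at 16 h, 836, 574 and 771 at 24 h, and 703, 642 and 732 at 48 h. The log2 change was 1.11 ± 0.15 at 8 h (adjusted p = 5.2e-07). At 48 h every array was still above those at 0 h, but the change of 0.33 did not pass the test (adjusted p = 0.091). TCOF1, which encodes treacle, a nucleolar cofactor of ribosomal RNA transcription, had signals of 178, 92.2 and 222 at 0 h, 219, 128 and 202 at 1 h, 242, 279 and 217 at 4 h, and 256, 265 and 363 at 8 h. They were 339, 278 and 306 at 12 h, 327, 317 and 233 at 16 h, 406, 333 and 379 at 24 h, and 249, 291 and 194 at 48 h. The 24 h arrays lay above all at 0 h, and the log2 change there was 1.17 ± 0.26 (adjusted p = 0.00053). The lowest of its 0 h values came from the array with the high ACTB ratio, and without that array the change was 0.84 and under the 2-fold limit. Another tested probe set of TCOF1 changed by -0.01 at 8 h and by 0.65 at 24 h, so the call rests on the representing probe set. POLR1B, the second largest subunit, is read by a probe set that can cross-hybridise, so its values are uncertain. It was the one member below its 0 h level at 8 h, and its arrays there overlapped with those at 0 h, with a log2 change of -0.51 ± 0.31 (adjusted p = 0.21). Its signals were 245, 257 and 212 at 0 h, 225, 135 and 156 at 1 h, 301, 239 and 154 at 4 h, and 244, 177 and 93.3 at 8 h. Later they were 175, 209 and 171 at 12 h, 149, 168 and 157 at 16 h, 172, 237 and 102 at 24 h, and 158, 125 and 165 at 48 h. At 48 h all 3 lay below those at 0 h, and the change of -0.62 did not pass the test (adjusted p = 0.12).

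Of the snoRNP and modification proteins, FBL (fibrillarin), the methyltransferase of box C/D snoRNPs, was called higher at every time between 8 h and 48 h. Its signals were 1846, 1715 and 1465 at 0 h, 1574, 1593 and 1807 at 1 h, 2408, 2615 and 2499 at 4 h, and 3809, 4352 and 3486 at 8 h. They were 4209, 4544 and 4676 at 12 h, 5016, 4951 and 5287 at 16 h, 6387, 4867 and 5329.6 at 24 h, and 5822, 5178 and 5519.9 at 48 h. No array from 4 h on overlapped with 0 h, and the log2 change was 0.58 at 4 h (adjusted p = 0.00035), 1.20 at 8 h (adjusted p = 1.4e-09) and 1.71 ± 0.12 (SE) at 48 h (adjusted p = 2.6e-13). NHP2, a core protein of the H/ACA snoRNPs that direct pseudouridine formation, had its highest mean at 48 h. Its signals were 5198, 6502 and 4816 at 48 h, against 2598, 2234 and 2915 at 0 h, a log2 change of 1.08 ± 0.14 (adjusted p = 8.3e-08), while its change at 8 h was 0.26. Its call at 48 h ended without 0 h replicate 2.

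GAR1, another H/ACA protein, had signals of 373, 241 and 408 at 0 h, 363, 447 and 410.4 at 1 h, 889, 749 and 899.6 at 4 h, and 1266, 857 and 1347 at 8 h. The later arrays gave 739, 916 and 934 at 12 h, 697, 1013 and 871 at 16 h, 1007, 985 and 734 at 24 h, and 495, 773 and 640.3 at 48 h. All arrays from 4 h on lay above those at 0 h, with a log2 change of 1.72 ± 0.20 at 8 h (adjusted p = 3e-08). At 48 h the change was 0.88 ± 0.20 (adjusted p = 0.00076), under the 2-fold limit. NOP2, a methyltransferase of the large ribosomal RNA, had signals of 137, 28.6 and 194 at 0 h, 134, 148 and 198 at 1 h, 404, 404 and 429.6 at 4 h, and 457, 310.5 and 455 at 8 h. They were 440.5, 266 and 366 at 12 h, 235, 401 and 352 at 16 h, 377, 352 and 325 at 24 h, and 398, 381 and 267 at 48 h. No array from 4 h on overlapped with 0 h, and the log2 change was 1.90 ± 0.34 at 4 h (adjusted p = 3.7e-05). Its lowest value again came from 0 h replicate 2. RRP9, a snoRNP protein needed for early cleavage of the precursor RNA, changed by 1.45 ± 0.29 at 8 h (adjusted p = 0.00014). NAT10, an RNA acetyltransferase, changed by 0.63 at 8 h and 0.14 at 48 h and was never called.

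Among the small subunit factors, 8 of 12 were called higher at 8 h and 3 at 48 h, against 8.41% and 9.82% of all genes. BYSL (bystin), an assembly factor of the pre-small subunit, had signals of 155, 169.9 and 127 at 0 h, 276, 241 and 178 at 1 h, 835, 634 and 738 at 4 h, and 592, 562 and 436 at 8 h. Later they were 567, 659 and 484 at 12 h, 672, 591 and 552 at 16 h, 430.4, 378 and 548 at 24 h, and 399, 496 and 507 at 48 h. Every array from 1 h on lay above those at 0 h, and the log2 change at 4 h was 2.16 ± 0.20 (adjusted p = 2.8e-10). PNO1, an RNA-binding assembly factor, had signals of 601, 533 and 559 at 0 h, 485, 691 and 613 at 1 h, 1905, 2183 and 1593 at 4 h, and 1677, 2175 and 2157 at 8 h. The later arrays gave 1706, 2066 and 2057 at 12 h, 1615, 1297 and 1539 at 16 h, 1198, 1167 and 1102 at 24 h, and 1219, 1315 and 1457 at 48 h. From 4 h on no array overlapped with 0 h. The log2 change at 8 h was 1.79 ± 0.15 (adjusted p = 2.4e-11), and another probe set of it changed by 1.23. At 24 h and 48 h the representing probe set changed by 1.01 and 1.21, and the other by 0.65 and 0.32. The calls of PNO1 at these 2 times thus rest on the representing probe set.

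RRP12, a factor for the export of pre-ribosomal subunits, had the largest log2 change of any member in the 7 comparisons with 0 h, and its 0 h signals were low and variable. Its signals were 11.9, 44.9 and 127 at 0 h, 189, 18.1 and 74.5 at 1 h, 454, 498 and 436 at 4 h, and 719, 458 and 481 at 8 h. They were 459, 379 and 368 at 12 h, 376, 201 and 167 at 16 h, 188, 256 and 148 at 24 h, and 56.8, 82.9 and 175 at 48 h. The 8 h arrays lay above all 0 h arrays while the 48 h arrays overlapped with them. The log2 change was 3.11 ± 0.46 at 8 h (adjusted p = 2.1e-06) and 0.80 at 48 h (adjusted p = 0.18). Its size at 8 h rests on dim 0 h signals, and the other two probe sets of the gene, which were dimmer, changed by -0.08 and -1.01. With the mean of its probe sets the change was 0.67 and was no longer called (adjusted p = 0.23).

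The remaining small subunit factors called higher at 8 h were WDR43 (1.45), UTP18 (1.43), DDX10 (1.27), WDR3 (1.27) and NOC4L (1.15, not called without 0 h replicate 2), all components or partners of the small subunit processome that assembles on the nascent precursor RNA. UTP20, a large scaffold of the same particle, had signals of 399, 359 and 346 at 8 h, against 287, 402 and 370.3 at 0 h, which overlap, and a log2 change of 0.07 ± 0.23 (adjusted p = 0.85). NOL6 had 318, 282 and 468, against 143, 261 and 221, which do not overlap, and a change of 0.73 ± 0.33 that did not pass the test (adjusted p = 0.08). HEATR1 and NOP14 changed by 0.83 and 0.85 at 8 h, under the 2-fold limit.

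Of the large subunit factors, 10 of 11 were called higher at 8 h and 6 at 48 h, against 8.41% and 9.82% of all genes. At 4 h against 1 h it was 7, against 6.48% of all genes. Differences between the roles were not tested. NOP16, a nucleolar factor of the pre-large subunit, had signals of 713, 619 and 762 at 0 h, 976, 981 and 879 at 1 h, 2981, 2529 and 3014 at 4 h, and 3718, 3829 and 3547 at 8 h. They were 2931, 2616 and 3126 at 12 h, 2739, 2835 and 3321 at 16 h, 2266, 2113 and 1915 at 24 h, and 1657, 1768 and 1479 at 48 h. All arrays from 1 h on lay above 0 h, with a log2 change of 0.43 ± 0.13 at 1 h (adjusted p = 0.040, under the 2-fold limit), 2.38 ± 0.13 at 8 h (adjusted p = 4.8e-16) and 1.21 at 48 h (adjusted p = 1.9e-09). Of its 3 other probe sets, the changes at 8 h were 2.38, 0.36 and -0.93. In the same order they were 0.14, 0.33 and -1.64 at 1 h, so the rise at 1 h rests on the representing probe set.

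NIP7, an assembly factor for the large subunit, had signals of 286, 163 and 144 at 0 h, 141, 307 and 240.4 at 1 h, 1041, 681 and 846 at 4 h, and 999, 882 and 954 at 8 h. Later they were 720.3, 1127 and 879 at 12 h, 692, 612 and 779.7 at 16 h, 552, 722 and 756 at 24 h, and 748, 843 and 478 at 48 h. All arrays from 4 h on lay above those at 0 h, and the log2 change at 8 h was 2.21 ± 0.25 (adjusted p = 8.9e-09). It had a change of 1.73 ± 0.25 at 48 h (adjusted p = 7e-07). RRS1, which helps to bring the 5S particle into the pre-large subunit, had signals of 466, 415 and 597 at 0 h, 706, 966 and 748 at 1 h, 1786, 1655 and 1367 at 4 h, and 1969, 2079.8 and 1890.2 at 8 h. The later arrays gave 1486, 2038 and 1844 at 12 h, 1654, 1846 and 1594 at 16 h, 1758, 1405 and 1318 at 24 h, and 1180.3, 1378 and 1321 at 48 h. No later array overlapped with 0 h. The log2 change was 0.69 ± 0.16 at 1 h (adjusted p = 0.0045, under the 2-fold limit) and 1.98 ± 0.16 at 8 h (adjusted p = 6.3e-12). DDX21, RRS1 and NOP16 were the 3 members higher at 1 h by adjusted p alone, against 3.29% of all genes.

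MRTO4, which holds the place of the ribosomal stalk protein in the pre-large subunit, changed by 1.93 at 8 h and 1.60 at 48 h. The other large subunit factors called higher at 8 h were GNL3L (1.42), BRIX1 (1.38), PES1 (1.29), RRP1 (1.28), GNL2 (1.19) and RRP1B (1.12). WDR12, which works in a complex with PES1, changed by 0.77 and stayed under the 2-fold limit at every time.

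Few members were called lower between 8 h and 48 h. The median change at 48 h against 8 h was -0.40, with -0.01 over all genes. DDX21 (-1.04 ± 0.13, adjusted p = 7.6e-08), RRP12 (-2.30 ± 0.46, adjusted p = 0.00025) and NOP16 (-1.17 ± 0.13, adjusted p = 8e-09) were called lower, 3 of 37 against 6.10% of all genes. None was called higher, against 6.26%, and at an unadjusted p under 0.05 there were 3 higher and 16 lower. The count lower was 5 without 8 h replicate 2, 2 without 8 h replicate 1, and 1 where a gene was read as the average over its probe sets. The other probe sets of RRP12, which were dimmer, changed by 0.15 and 0.24 at 48 h against 8 h. Those of NOP16 changed by -0.73, -1.42 and -0.17. By adjusted p alone 12 members were lower, against 12.0% of all genes. They were DDX21, RRP12 and NOP16 with NOLC1, POLR1C, GAR1, WDR3, WDR43, NOP14, DDX10, PNO1 and RRS1. FBL (0.51 ± 0.12, adjusted p = 0.0019) and NHP2 (0.82 ± 0.14, adjusted p = 1.8e-05) were higher at 48 h than at 8 h, 2 of 37 against 14.3%.

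**Figure D4:**
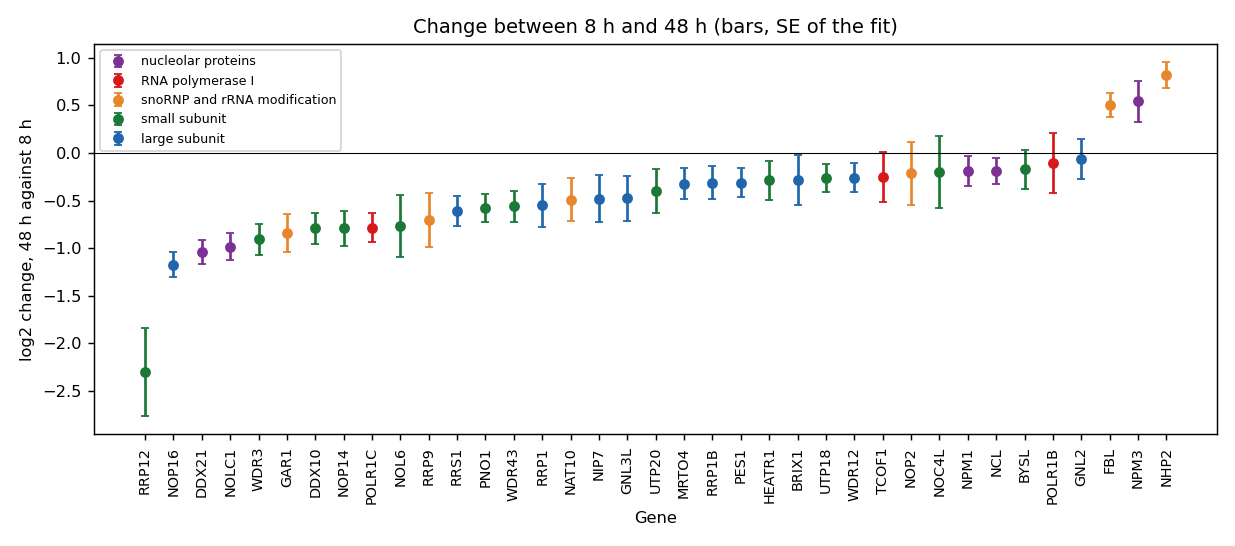
Log2 change at 48 h against 8 h (y axis, bars give the SE of the fit) for the 37 genes (x axis, sorted by change and coloured by role). By the probe set that represents each gene, RRP12 is lowest at -2.30 and NHP2 highest at 0.82.

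The measured members moved together across the arrays. The correlation of each gene's log2 signal with the mean of the other measured members over the 24 arrays had a median of 0.84 and reached at least 0.7 for 33 of the 37, between -0.19 for POLR1B and 0.96 for NOP16. These values describe samples that share the time course and are not tests. For 11 genes there were 17 further tested probe sets, of which 11 changed at 8 h in the same direction as the one that represents the gene and 6 in the opposite direction. The 6 had mean signals of 37.9 to 190.3 and belonged to TCOF1, UTP18, RRP12, NOP16 and RRP1B.

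Other genes of the pathway were read from a wider list. Of 142 further symbols listed for these roles, 108 genes were measured, and 34 were called higher and none lower at 8 h, with a median of 0.70 (8.41% and 10.1% of all genes). At an unadjusted p under 0.05 there were 66 higher and 7 lower. Each group is given at the time with its highest count, beside its lowest count from 4 h on. Over all genes 10.4% were called higher at 24 h and 9.82% at 48 h. Among other large subunit factors 14 of 36 were called higher at 8 h (7 at 48 h), led by PAK1IP1, NLE1 and RRP15, the first with mean signals of 854 ± 74.2 at 8 h and 170.0 ± 70.1 at 0 h (SD, n = 3 each) and a log2 change of 2.27 ± 0.25 (adjusted p = 5.4e-09). Among other small subunit factors it was 9 of 24 at 8 h (4 at 24 h and 48 h), with TSR1 at 1148 ± 68.5, against 292 ± 109 at 0 h (SD), and a change of 1.97. Other RNA polymerase I genes had 5 of 11 called higher at 4 h (1 at 24 h), against 7.60% of all genes at 4 h, led by TAF1D, a subunit of its selectivity factor, at 1.84 ± 0.30, with POLR1G at mean signals of 571 ± 133 at 4 h and 209.6 ± 113 at 0 h (SD, n = 3 each). Other snoRNP genes had 5 of 14 at 16 h (1 at 4 h), against 9.19% of all genes at 16 h, with EMG1, a methyltransferase of the small subunit RNA, at 1.99 ± 0.18.

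The RNA exosome, which trims the precursor RNA and degrades its by-products, had 6 of 10 measured genes called higher at 16 h (2 at 4 h), against 9.19% of all genes at 16 h, with EXOSC2 at 2.04 ± 0.22 (adjusted p = 2.6e-09), EXOSC5 at 1.48 and EXOSC9 at 1.47. RNA polymerase III and 5S genes had 3 of 14 called higher at 24 h, POLR3D, POLR3G and POLR3K, and 1 called lower, GTF3C1, where 10.4% and 11.2% of all genes were called, so counts this small are no result about the list. At 4 h DIS3, an exosome nuclease, and POLR3B were called lower, among 108 measured, against 7.10% of all genes.

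Ribosomal protein genes, the structural parts that these factors assemble, were seldom called at 2-fold. Of 79 listed, 52 were measured, and none was called in either direction at 4 h or 8 h. At an unadjusted p under 0.05 they gave 3 higher and 5 lower at 4 h, and 11 higher and 2 lower at 8 h. Later it was 33 higher and 0 lower at 16 h, and 24 higher and 0 lower at 24 h. These unadjusted counts have no share of all genes beside them. By adjusted p alone, 9 of the 52 ribosomal protein genes were higher at 8 h, against 16.0% of all genes. Their median log2 change was -0.07 at 4 h and 0.09 at 8 h, and later 0.36 at 16 h and 0.12 at 48 h. At 16 h RPL35A alone was called higher, with mean signals of 16256 ± 1475 at 16 h and 7485 ± 595 at 0 h (SD, n = 3 each) and a log2 change of 1.12 ± 0.13 (adjusted p = 1e-08). At 24 h RPS3 alone was called higher, with a log2 change of 1.07 ± 0.14 (adjusted p = 7e-08), and at the other 5 times none was. The difference between these genes and the biogenesis factors was not tested as such. The ribosomal protein genes were also far brighter, with a mean log2 signal of 13.98 at 0 h and 14.09 at 8 h. For the measured members it was 8.78 and 10.06 at these times. Whether changes are read as smaller at such bright signals was not tested.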

How the data were processed

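RNA of 24 HepaRG samples, 3 at each of 8 times, was read on Affymetrix arrays with 22283 probe sets. The authors deposited linear intensity values made with MAS5, per the submitters' processing notes, whose version is not given in the sources used here. The number of arrays limits the precision. No 2 arrays held identical values.

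Signals of the 22215 probe sets other than controls were put on a log2(signal + 18) scale, with 18 taken from the 20th percentile over every array, so changes of dim genes are understated. The test took in a probe set where 3 or more arrays lay above their own 40th percentile (17122 probe sets). The array's annotation gave 1 symbol for 19065 probe sets, several for 1043 and none for 2107. Where several tested probe sets read a gene, the one with the highest mean log2 value stood for it.

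A model over all 24 arrays was fitted in R 4.3.3 with limma 3.58.1 (group means, contrasts, eBayes with trend, 16 residual degrees of freedom, two-sided p-values adjusted by Benjamini-Hochberg over 9966 genes), tested on simulated data. The replicate number was no block. Over 84 pairs of same-numbered samples, deviations from the time means had correlations of -0.067 to 0.065. Over 168 pairs with different numbers these were -0.062 to 0.040. No pairing by number was apparent from these values, and it was not tested. Values on every array were given for the 3 members of each role with the largest change against 0 h and for members below their 0 h level at 8 h. Values at some times were given for NPM1, NCL, NHP2, UTP20 and NOL6, chosen after their values were seen. Of the other lists, up to 3 called genes with the largest change were named, and genes called lower, the biliary markers and RPS3 were also named after their values were seen. The members and lists were chosen with earlier results of these data known. The alternatives were other pseudocounts, scalings, filters and probe set rules, fits of only the compared times, the block, no fold limit, and leaving out each array. Figures used matplotlib 3.10.9 in Python 3.11.15.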

Additional observations from a re-analysis of the deposited data

How the results depend on the processing

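Of 208 counts of members under settings other than a left-out array, 198 stayed within 1.5 times, and of 224 single gene changes 220 kept their direction and call and none reversed. By adjusted p alone, members higher than at 0 h numbered 3, 29, 32, 32 and 28 at 1, 4, 16, 24 and 48 h. Over all genes the share was 3.29% at 1 h and 19.6% at 48 h. It is not given here for 4, 16 and 24 h, so those counts have no background beside them. By that rule 7 members were higher at 8 h than at 4 h. At 48 h against 8 h 2 were higher and 12 lower, since it sets no fold limit, with the shares of all genes given above. Centring each array on its median gave 22 higher at 48 h against 0 h. Averaging over the probe sets of a gene gave 1 lower at 48 h against 8 h. Neither count has a share of all genes beside it, and the cause was not tested. TCOF1 at 24 h fell under the 2-fold limit with the larger pseudocount (0.94), the mean of probe sets (0.91) and without 0 h replicate 2 (0.84), and RRP12 at 8 h changed by 0.67 with the mean of probe sets.

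Leaving out 1 array at a time, members called higher than at 0 h numbered 17 to 20 at 4 h and 25 to 27 at 8 h, then 21 to 24, 20 to 23, 16 to 22 and 11 to 16 in the samples of 12, 16, 24 and 48 h, and 17 to 21 were higher at 4 h than at 1 h. The members lower at 48 h than at 8 h numbered 2 to 5, with 5 without 8 h replicate 2. The F-test was passed by 33 to 34 members, a setting chosen after seeing the data. All counts of 0 stayed 0. With the replicate number as a block, 26 members were higher at 8 h, 13 at 48 h and 3 lower at 48 h than at 8 h. The block changed no call count given here. For 12 of the 24 arrays, the mean correlation with arrays of other times was highest for those of their own number, which was not tested. Array signals near background limit RRP12, NOP2 and TCOF1 at 0 h, among others. NOC4L and RRP9, with 0 h means of 91.3 and 123.7, were dimmer there than TCOF1 at 164.3.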
